A study of Mus musculus with 35 samples.

Results

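The transcripts described here are those of 10 genes that break down stored triglyceride or coat the lipid droplet, measured in interscapular brown adipose tissue (iBAT) of mice during the first 5 days of cold exposure. They were chosen by name for their role, as the lipases Pnpla2, Lipe and Mgll, the regulators Abhd5 and G0s2, and the perilipins Plin1, Plin2, Plin3, Plin4 and Plin5. Each name matched 1 row, so the 10 genes are 10 of the 55421 rows of the count table. The 35 mice were C57BL/6J males of 9 to 10 weeks, fed standard chow. Groups of 5 mice were either kept at colony room temperature, set at 24 °C, as controls (RT) or moved to an incubator at 6 °C for 6 hours or for 1, 2, 3, 4 or 5 days. Mice in the incubator lived alone and without nesting material, so temperature and housing cannot be told apart. Each library came from the iBAT of 1 mouse, trimmed of the neighbouring white fat, and the 5 libraries of a group are biological replicates.

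Brown adipocytes keep triglyceride in many small droplets and hydrolyse it when noradrenaline raises cAMP and activates protein kinase A (PKA), which supplies fatty acids for heat production. Pnpla2 encodes ATGL, which removes the first fatty acid from triglyceride, Lipe encodes hormone-sensitive lipase, which acts on diglyceride, and Mgll encodes monoglyceride lipase, which releases the last fatty acid and glycerol. Abhd5 (CGI-58) activates ATGL and G0s2 inhibits it, while perilipins coat the droplet and govern the access of these proteins to it. All of this control acts largely on protein, and the values below are transcript levels.

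All 10 are protein-coding genes of the GRCm38 annotation. The lipases are Pnpla2 (ENSMUSG00000025509) at chr7:141455198-141460743 on the plus strand, Lipe (ENSMUSG00000003123) at chr7:25379527-25398710 on the minus strand and Mgll (ENSMUSG00000033174) at chr6:88724412-88828360 on the plus strand. The regulators are Abhd5 (ENSMUSG00000032540) at chr9:122351608-122381524 on the plus strand and G0s2 (ENSMUSG00000009633) at chr1:193272161-193273217 on the minus strand. Of the perilipins, Plin1 (ENSMUSG00000030546) at chr7:79720218-79732903 on the minus strand and Plin2 (ENSMUSG00000028494) at chr4:86648386-86670060 on the minus strand stand alone. The other 3 lie on 1 chromosome, with 1797 bases between Plin4 and Plin5 and 159879 between Plin5 and Plin3. They are Plin3 (ENSMUSG00000024197) at chr17:56277476-56292873 on the minus strand, Plin4 (ENSMUSG00000002831) at chr17:56100591-56109803 on the minus strand and Plin5 (ENSMUSG00000011305) at chr17:56111601-56117596 on the minus strand.

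The libraries held between 3846016 and 6047247 counts on genes, of which mitochondrial genes took 33.6 to 46.2% and the nuclear gene Gm42418 took 7.81 to 16.3%. Levels are CPM, a gene's count divided by the library total and scaled with TMM factors that correct for a few very abundant genes, and the library kit reads the 3′ end of a transcript, so CPM was not divided by length. The marker Ucp1 stood at 1274 CPM or more in every library, and none of the 6 brown adipocyte markers was at 0 in any library. The least counted member, Plin3, had at least 225 counts in each mouse, so all 10 genes passed the filter on low counts in every comparison. At room temperature Pnpla2 ranked 27, Lipe 55, Mgll 81 and Plin1 90 by mean CPM among the 32079 genes with reads, whereas Abhd5 ranked 1331.

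Each duration of cold was compared with the same 5 controls with edgeR's quasi-likelihood test, and a gene was called higher or lower at a Benjamini-Hochberg adjusted p under 0.05 over all genes tested. Because the 6 comparisons share their controls, they are not independent of each other. After 6 hours 2 members were higher and 2 lower, where 21.5% of all genes tested were higher and 21.0% lower. After 1 day the rises numbered 4 and the falls 3, where 18.9% and 17.8% of all genes did so. At 2 days there were 4 rises and 1 fall (16.4% and 14.7%), at 3 days 3 and 2 (18.3% and 15.5%), at 4 days 3 and 3 (19.4% and 18.6%), and at 5 days 4 and 1 (20.2% and 18.6%). The largest counts, 4 rises of 10 after 1, 2 and 5 days, lie above the background share. So few genes cannot settle whether such a count departs from that share in a tissue where so many genes changed. The description below turns on which genes moved, when, and by how much. Over the 7 groups together 9 of the 10 differed, against 60.4% of all genes, and Plin2 ranked 11 of 12077 genes by p.

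The split between higher and lower depended on the scaling. TMM factors ran from 1.09 to 1.21 in the 5 controls and from 0.875 to 1.15 in the cold mice, so they differed with the groups compared. Without TMM, dividing by library size alone moved the median log2 fold change of all genes from between -0.03 and -0.01 to between -0.25 and -0.15 against controls, and the share of calls that were higher from between 50.6 and 54.2% to between 25.1 and 35.5%. The members lower in the cold then numbered 4 instead of 2 after 6 hours and 6 instead of 1 after 2 days. No member called with TMM turned its direction under this or any other setting tried.

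**Figure D1:**
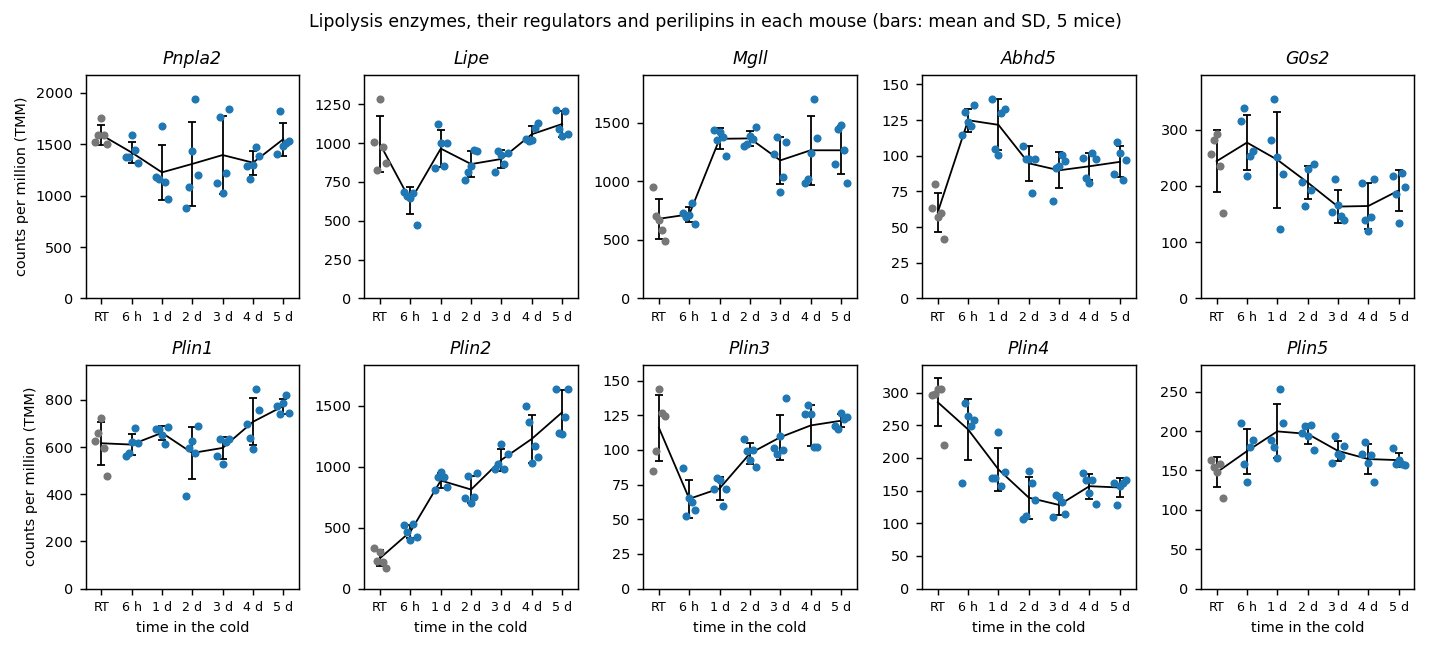
TMM-scaled CPM of the 10 genes (vertical axes, each from 0) in room temperature controls (RT, grey) and in mice after 6 hours or 1 to 5 days of cold (blue), 1 point per mouse, with the mean and SD of 5 mice in black. Plin2 rose from 250 ± 63.9 to 1448 ± 185 CPM, Lipe fell after 6 hours, Mgll rose between 6 hours and 1 day, and Plin4 fell over the first 3 days.

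Among the lipases, Pnpla2 had the highest mean CPM in every group except after 1 and 2 days, when Mgll stood above it, and with TMM it was the only one that did not pass the test over the 7 groups. Controls had 1521, 1586, 1756, 1595 and 1502 CPM, a mean of 1592 ± 100.2 (SD, n = 5). After 6 hours the mice had 1377, 1375, 1587, 1445 and 1319 CPM, and after 5 days 1404, 1824, 1482, 1509 and 1532 CPM. The groups overlapped at both times, with log2 fold changes of -0.19 (SE 0.08, adjusted p = 0.072) and -0.06 (SE 0.10, adjusted p = 0.65). It was called lower after 1 day (log2 fold change -0.39, SE 0.13, adjusted p = 0.024) and after 4 days (-0.29, SE 0.09, adjusted p = 0.017). Neither call was firm: that at 1 day was lost without control 3 or without any 1 of cold mice 1, 2, 4 and 5 (adjusted p between 0.052 and 0.068), and that at 4 days without cold mouse 2 (0.074), and both were lost with all 35 mice in 1 fit (0.052 and 0.15). Over the 7 groups its adjusted p was 0.25, and it came to 0.042 without cold 2 days replicate 4. By library size alone it was lower at all 6 durations and differed among the groups (adjusted p = 0.0016).

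Pnpla2 varied most between mice after 2 and 3 days. The 2-day mice had 877, 1084, 1439, 1946 and 1200 CPM and the 3-day mice 1125, 1768, 1022, 1222 and 1841 CPM. The SD was 410 and 381 CPM there, against 100.2 in controls, and 1 mouse after 2 days and 2 mice after 3 days lay above every control while the other 7 mice lay below all of them.

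Lipe fell early and came back. Controls had 1007, 827, 1288, 975 and 869.5 CPM and mice after 6 hours had 684, 661, 645, 681 and 475 CPM. All 5 cold mice lay below every control, and the fall by 0.69 on the log2 scale (SE 0.12, adjusted p = 0.00023) brought the mean from 993 ± 181 to 629 ± 87.4 CPM. After 1 day the mean was again 965 ± 117 CPM and the log2 fold change -0.06 (adjusted p = 0.74). From 2 to 5 days it ran from 865 ± 84.3 to 1123 ± 82.7 CPM, and no duration after 6 hours passed the test with TMM, while the falls after 2 and 3 days did by library size alone (-0.44 and -0.29, adjusted p = 0.0050 and 0.043). Between 6 hours and 5 days the level rose by 0.84 on the log2 scale (SE 0.11, adjusted p = 4.5e-06). In that comparison of cold groups Lipe was 1 of 5 members that were higher at the late time (19.0% of all genes), with 3 members lower (16.9%).

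Mgll was not called after 6 hours and rose within the first day. After 6 hours the 5 mice had 726, 697.5, 714, 819 and 634 CPM, within the range of the controls at 949, 707, 667, 585 and 489 CPM. After 1 day they had 1438, 1355, 1424, 1381 and 1216 CPM, all above every control and above every 6-hour mouse. The log2 fold change was 0.05 (SE 0.14, adjusted p = 0.79) after 6 hours and 0.99 (SE 0.14, adjusted p = 4.9e-05) after 1 day. It stayed between 0.78 and 0.99 at the later durations, each past the test, with means from 1179 to 1366 CPM whose ranges overlapped. Mgll thus made up 20.7% ± 4.3 of the counts of the 3 lipases in controls and 38.5% ± 2.8 after 1 day, while Pnpla2 went from 49.0% ± 3.5 to 34.2% ± 4.0. These shares assume that the kit counts the 3′ ends of the 3 lipases alike, which the data do not show.

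Of the regulators, Abhd5 carried the earliest rise, about as large after 6 hours as after 1 day. Its promoter, 250 bases before to 50 after the start site in RefSeq (GRCm38.p6, chr9:122351366-122351665, plus strand), is printed because it was the only one of the promoters of the 4 genes called after 6 hours to hold TGACG, the core of a cAMP response element (CRE). The capitals mark TGACG, which begins 128 bases before the start site.
Abhd5: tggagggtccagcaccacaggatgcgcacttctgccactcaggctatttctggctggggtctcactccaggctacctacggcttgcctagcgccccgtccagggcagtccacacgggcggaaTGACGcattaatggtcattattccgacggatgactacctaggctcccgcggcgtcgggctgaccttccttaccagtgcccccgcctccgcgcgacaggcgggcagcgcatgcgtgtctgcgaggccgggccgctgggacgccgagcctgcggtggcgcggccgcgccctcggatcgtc
The full CRE, TGACGTCA, was found in none of the 13 RefSeq promoters of the members and in 1.79% of 32851 mouse promoters, searched on both strands. TGACG alone, which every CRE also contains, was in 20.8% of them, and besides Abhd5 in that of G0s2 and in 1 of the 2 promoters of Mgll. A match is a run of letters and says nothing of binding.

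Controls had 63.5, 80.1, 57.2, 59.5 and 41.9 CPM of Abhd5, mice after 6 hours 114.5, 130.3, 124, 121 and 135 CPM, and mice after 1 day 140.1, 104.5, 101, 130.1 and 133 CPM. The cold mice of both groups were all above every control. The log2 fold change was 1.02 (SE 0.13, adjusted p = 7.4e-06) after 6 hours and 0.99 (SE 0.15, adjusted p = 7.5e-05) after 1 day. From 2 to 5 days it was lower, 0.56 to 0.64, and past the test each time, and the fall from 6 hours to 5 days, 124.9 ± 8.2 to 95.7 ± 10.9 CPM, passed the test as well (by 0.38 on the log2 scale, SE 0.10, adjusted p = 0.0065). After 2 days the call rested on the scaling, with an adjusted p of 0.055 by library size alone.

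G0s2, the inhibitor, moved later and the other way. Controls had 257, 282, 292, 236 and 152 CPM, and mice after 3 days had 154, 211, 165, 146 and 139 CPM. Of the cold mice 2 lay below every control and 3 lay within the range that control 5, the lowest, opened. The log2 fold change was 0.16 after 6 hours (adjusted p = 0.43), -0.00 after 1 day, -0.59 (SE 0.16, adjusted p = 0.0079) after 3 days, -0.59 (SE 0.17, adjusted p = 0.013) after 4 days and -0.37 (SE 0.16, adjusted p = 0.072) after 5 days. Without control 5 the values at 2 and 5 days were -0.39 and -0.50, and both passed the test (adjusted p = 0.032 and 0.0082). Both also passed by library size alone (-0.48 and -0.59, adjusted p = 0.020 and 0.0076), and the 5-day value passed with no filter on low counts (-0.34, adjusted p = 0.030). After 1 day the 5 mice spread from 123 to 355 CPM, wider than in any other group.

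The 2 regulators can be set against each other as reads of Abhd5 per read of G0s2, a ratio that needs no scaling. It was 0.196 to 0.284 in controls (median 0.252) and 0.363 to 0.570 after 6 hours (median 0.478). At each duration the lowest cold mouse, at 0.294 or above, exceeded the highest control. Reads of Pnpla2 per read of Abhd5 went from a median of 26.8 to 12.0 after 6 hours and 16.1 after 5 days, and only the 2-day group, whose highest mouse had 26.3, reached into the range of the controls, 19.8 to 35.9. Reads of Mgll per read of Lipe rose from a median of 0.601 to 1.11 after 6 hours, a time at which Lipe was lower and Mgll was not called, and to 1.62 after 2 days.

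**Figure D2:**
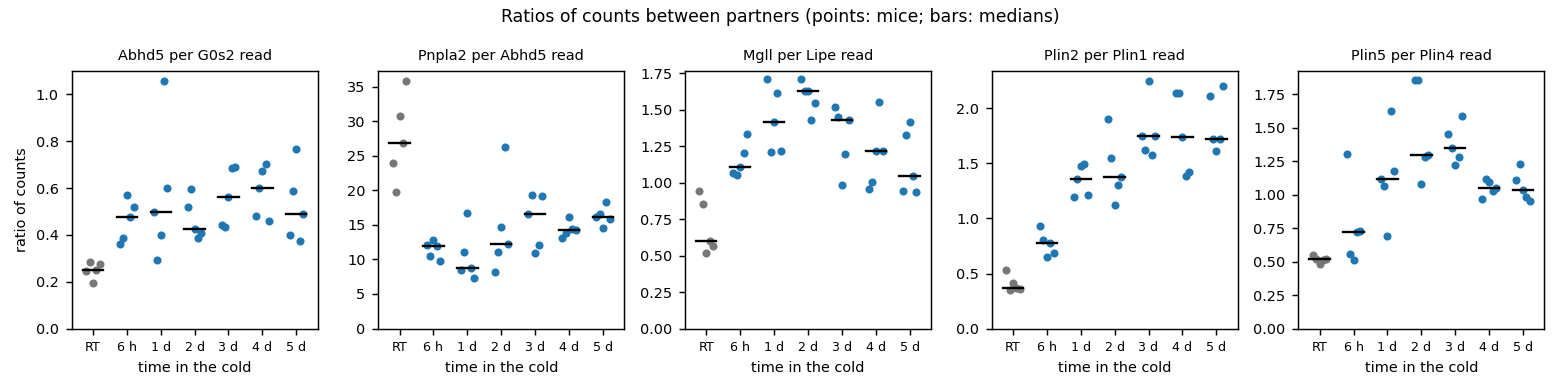
Ratios of counts between pairs of members (vertical axes, from 0) in each mouse at room temperature (RT, grey) and by time in the cold (blue), with the median of each group as a bar. Every cold mouse exceeds every control in reads of Abhd5 per G0s2 read and of Plin2 per Plin1 read, whereas the ratio of Mgll to Lipe is highest after 2 days and declines after that.

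Among the perilipins Plin2, the coat protein of droplets in most cell types, rose at every duration, and Plin4, found mainly in white fat and muscle, fell from 1 day on. Their RefSeq promoters (Plin2, chr4:86670010-86670309, minus strand, and Plin4, chr17:56109733-56110032, minus strand, both GRCm38.p6) are shown as those of the member that rose most and the member that fell most. They hold neither motif, so no base is in capitals.
Plin2: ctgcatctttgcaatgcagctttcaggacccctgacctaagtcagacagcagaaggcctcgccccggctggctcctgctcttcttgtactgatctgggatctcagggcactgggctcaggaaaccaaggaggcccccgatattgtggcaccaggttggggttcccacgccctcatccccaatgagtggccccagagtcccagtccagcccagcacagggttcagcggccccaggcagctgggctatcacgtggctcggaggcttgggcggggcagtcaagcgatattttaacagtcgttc
Plin4: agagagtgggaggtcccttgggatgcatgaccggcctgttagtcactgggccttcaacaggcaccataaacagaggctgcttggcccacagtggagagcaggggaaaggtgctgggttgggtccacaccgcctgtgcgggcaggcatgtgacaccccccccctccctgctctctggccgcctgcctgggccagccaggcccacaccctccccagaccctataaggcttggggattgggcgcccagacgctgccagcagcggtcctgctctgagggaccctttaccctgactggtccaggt

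Controls had 332.5, 229, 297, 219.8 and 173 CPM of Plin2. After 6 hours the mice had 522, 461.5, 402, 529.6 and 425 CPM, and after 1 day 807, 920.1, 961.5, 917 and 832 CPM. Each of these groups lay wholly above the one before. After 3 days the levels were 985, 1023, 1189, 982 and 1109 CPM and after 5 days 1639, 1277, 1269, 1412 and 1642 CPM, again without overlap, while the 2-day mice (703 to 948 CPM) overlapped those of 1 day and the 4-day mice (1033 to 1498 CPM) overlapped both of their neighbours. The log2 fold change went from 0.88 (SE 0.14, adjusted p = 0.00011) after 6 hours and 1.81 (SE 0.15) after 1 day through 1.69 (SE 0.16), 2.07 (SE 0.15) and 2.28 (SE 0.16) to 2.51 (SE 0.15, adjusted p = 1.9e-09) after 5 days, a 5.70-fold higher level. After 5 days 0.866% of the genes tested had a larger log2 fold change in either direction, against 16.7% after 6 hours. Between 6 hours and 5 days the rise of 1.64 (SE 0.12, adjusted p = 1.8e-09) passed the test.

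Plin4 was highest in controls at 296, 298, 306, 306 and 221 CPM. After 6 hours the mice had 162, 284.5, 265, 249 and 258 CPM and after 3 days 110, 144, 140.5, 132 and 114 CPM. The 6-hour mice lay between the lowest and the highest control except for mouse 1, which was below all of them, and all 3-day mice lay below every control. The fall by 0.26 after 6 hours did not pass the test (SE 0.13, adjusted p = 0.13), whereas those by 0.66, 1.05, 1.16, 0.89 and 0.91 on the log2 scale after 1, 2, 3, 4 and 5 days did (adjusted p between 1.5e-06 and 0.00063). Control 5 had the lowest Plin4 of its group, and without it or any other single mouse each of these calls held.

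Plin3, which coats nascent droplets in many cell types, was low early, as Lipe was. Controls had 84.6, 98.9, 144, 127 and 125 CPM, mice after 6 hours 87.1, 52.3, 65.3, 62.3 and 56.5 CPM and mice after 5 days 117.5, 115, 126, 122 and 123.5 CPM. After 6 hours 4 of 5 mice were below every control, after 1 day all 5 were, and after 5 days the ranges overlapped throughout. The log2 fold change was -0.87 (SE 0.15, adjusted p = 0.00015) after 6 hours, -0.70 (SE 0.14, adjusted p = 0.00075) after 1 day and -0.26 (adjusted p = 0.15, or -0.48 and 0.021 by library size alone) after 2 days, and between -0.10 and 0.04 from 3 to 5 days. From 6 hours to 5 days Plin3 rose by 0.91 (SE 0.12, adjusted p = 5.3e-06).

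Plin1 and Plin5 moved least. Plin1, the perilipin of mature adipocytes that PKA phosphorylates and that holds Abhd5 in the resting cell, stood at 616 ± 90.7 CPM in controls and between 575 and 707 CPM in the first 4 days, with no call. After 5 days the mice had 775, 742, 786.5, 819 and 746 CPM against 625, 658, 724, 597 and 478 CPM in controls. All 5 cold mice lay above every control, by 0.31 on the log2 scale (SE 0.11, adjusted p = 0.030), but this call was lost by library size alone (0.08, adjusted p = 0.57) and without control 4, control 5, or cold mouse 3 or 4 (adjusted p from 0.053 to 0.093).

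Plin5, which links droplets to mitochondria in oxidative tissue, had 163, 155, 148, 158 and 115 CPM in controls, 189, 179.7, 166, 254 and 209.7 CPM after 1 day and 198, 206, 194, 208 and 177 CPM after 2 days. Both cold groups lay above every control. The log2 fold change of 0.42 after 1 day (SE 0.13, adjusted p = 0.016) and 0.40 after 2 days (SE 0.11, adjusted p = 0.010) was followed by 0.24, 0.13 and 0.12, none past the test. The call after 1 day was lost without control 5, the lowest control (0.34, adjusted p = 0.052), and both were lost by library size alone (0.21 and 0.18, adjusted p = 0.24 and 0.23), as was its difference over the 7 groups (adjusted p = 0.013 with TMM and 0.31 without). Plin4 and Plin5 lie next to each other on chromosome 17, on the same strand and 1797 bases apart in the GRCm38 annotation, and moved in opposite directions after 1 and 2 days. Reads of Plin5 per read of Plin4 had a median of 0.518 in controls, 1.35 after 3 days and 1.04 after 5 days.

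**Figure D3:**
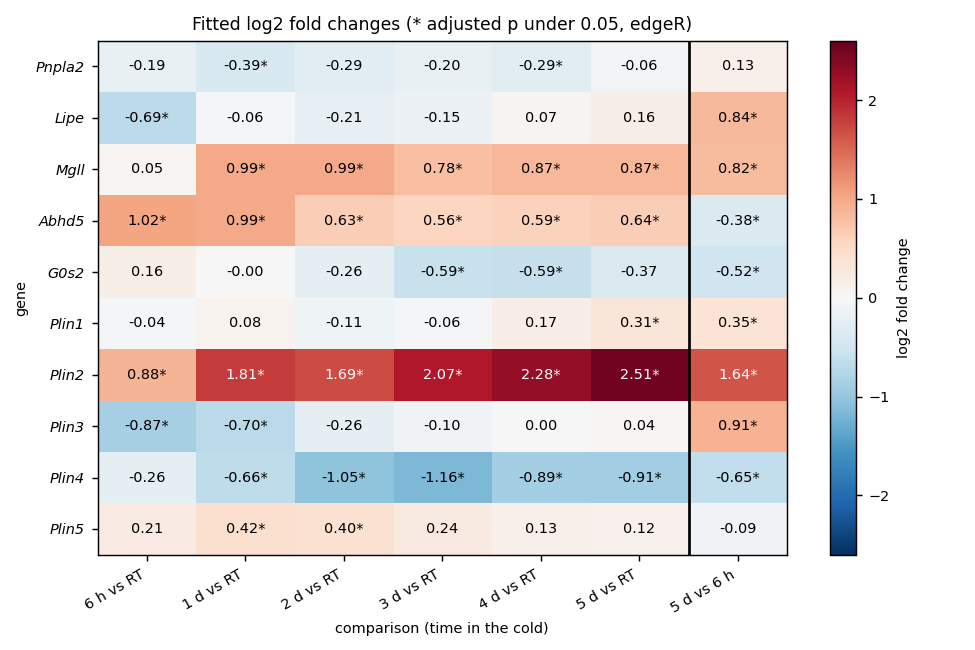
Fitted log2 fold changes of the 10 genes (rows) at each duration of cold against room temperature and, to the right of the line, after 5 days against 6 hours (columns), with red for higher and blue for lower and an asterisk at adjusted p under 0.05. Plin2 and Abhd5 carry an asterisk at all 6 durations and Mgll and Plin4 at the 5 from 1 day on, whereas those of Lipe and Plin3 are at the early times.

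The make-up of the perilipin counts changed accordingly. In controls Plin1 held 43.5% ± 1.7 of the counts of the 5 perilipins, Plin4 20.2% ± 1.1, Plin2 17.5% ± 2.8, Plin5 10.5% ± 0.81 and Plin3 8.33% ± 2.2. After 6 hours Plin2 held 29.9% ± 2.8, after 1 day 44.3% ± 2.0 and after 5 days 54.3% ± 3.1. The largest share thus passed from Plin1 to Plin2 between 6 hours and 1 day. Plin1 ended at 29.2% ± 2.4, Plin5 at 6.15% ± 0.42, Plin4 at 5.82% ± 0.37 and Plin3 at 4.57% ± 0.37. The share of Plin1 fell while its own level did not, since the perilipins together rose from 1415 ± 188 to 2660 ± 198 CPM. These shares assume that the kit counts the 3′ ends of the 5 genes alike, which the data do not show. The size of their shifts between groups and the time at which Plin2 passed Plin1 rest on it as well. The fold change between groups in reads of Plin2 per read of Plin1 does not.

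**Figure D4:**
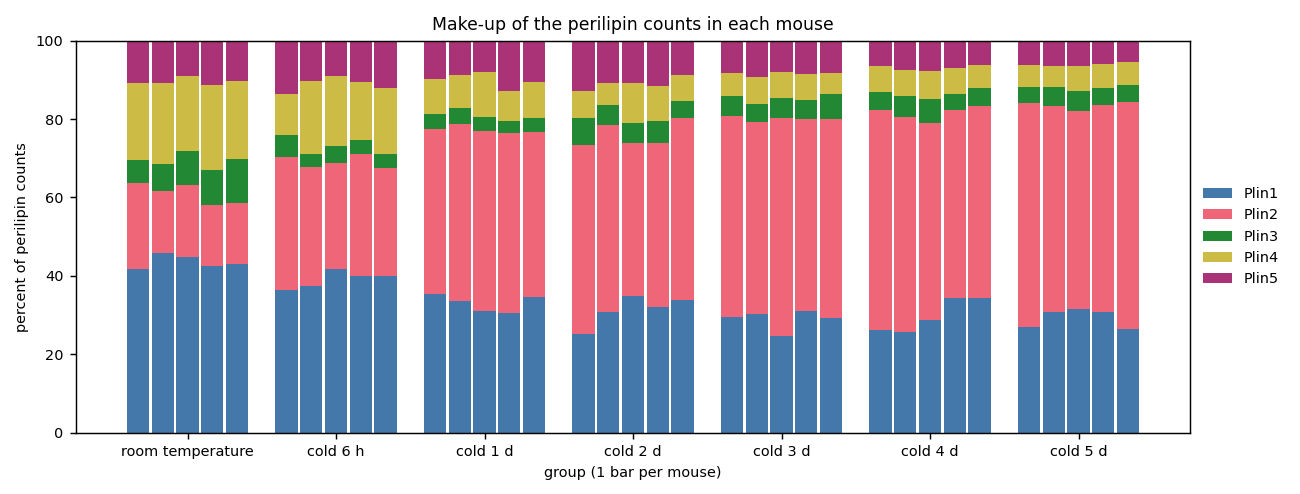
Percent of all perilipin counts that fell on each of the 5 perilipins (stacked to 100%), 1 bar per mouse, in room temperature controls and by time in the cold. The part of Plin2 widens from 15.6 to 22.2% in controls to 50.7 to 57.9% after 5 days, mostly at the cost of Plin1 and Plin4.

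A wider set of 29 genes, without the members, covers adrenergic and other receptors, cAMP signalling, droplet proteins, fatty acid handling and further lipases, and all 29 were tested. After 6 hours 10 of them were higher and 7 lower, where 21.5% and 21.0% of all genes were, and after 5 days 10 and 8 (20.2% and 18.6% of all genes), with a median log2 fold change of -0.10 and 0.02 (over all genes -0.03 and -0.02). Npr3, the clearance receptor of natriuretic peptides, rose from 19.9 to 142 CPM after 6 hours and was at 124 CPM after 5 days (log2 fold changes 2.81 and 2.62). Gk, glycerol kinase, which returns released glycerol to glycerol 3-phosphate, rose from 159 to 999 CPM and was at 501 CPM after 5 days (2.62 and 1.63). The third by rise was Pde4d, a cAMP phosphodiesterase, after 6 hours (1.49, from 32.7 to 93.6 CPM) and Lipa, the acid lipase of lysosomes, after 5 days (1.20, from 49.0 to 114 CPM).

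The largest falls at both times were in Hcar1 and Adora1, receptors whose signal lowers cAMP. Hcar1, the lactate receptor, dropped from 33.2 to 1.69 CPM after 6 hours and was at 4.94 CPM after 5 days (log2 fold changes -4.32 and -2.77). Adora1, an adenosine receptor, dropped from 92.3 to 13.6 and stood at 26.0 CPM (-2.79 and -1.86). Pnpla3, a relative of ATGL, fell by 1.69 on the log2 scale after 6 hours at few counts (9.12 to 2.76 CPM), and Ces1f, a carboxylesterase, by 1.73 after 5 days, from 22.2 to 6.84 CPM, with reads that it may share with other Ces1 genes. Each of these 12 values had an adjusted p of 0.00071 or less, and each passed the test under every setting tried. Adrb3, a receptor whose signal raises cAMP, was also called lower after 6 hours, from 94.5 to 44.3 CPM (log2 fold change -1.12, SE 0.23, adjusted p = 0.00082). Over the 35 libraries Adrb3 had a median of 124.5 CPM, and its highest level, 207.6 CPM, was in cold 5 days replicate 2. This 1 mouse does not give the level of the 5-day group, whose fold change is not given here.

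**Figure D5:**
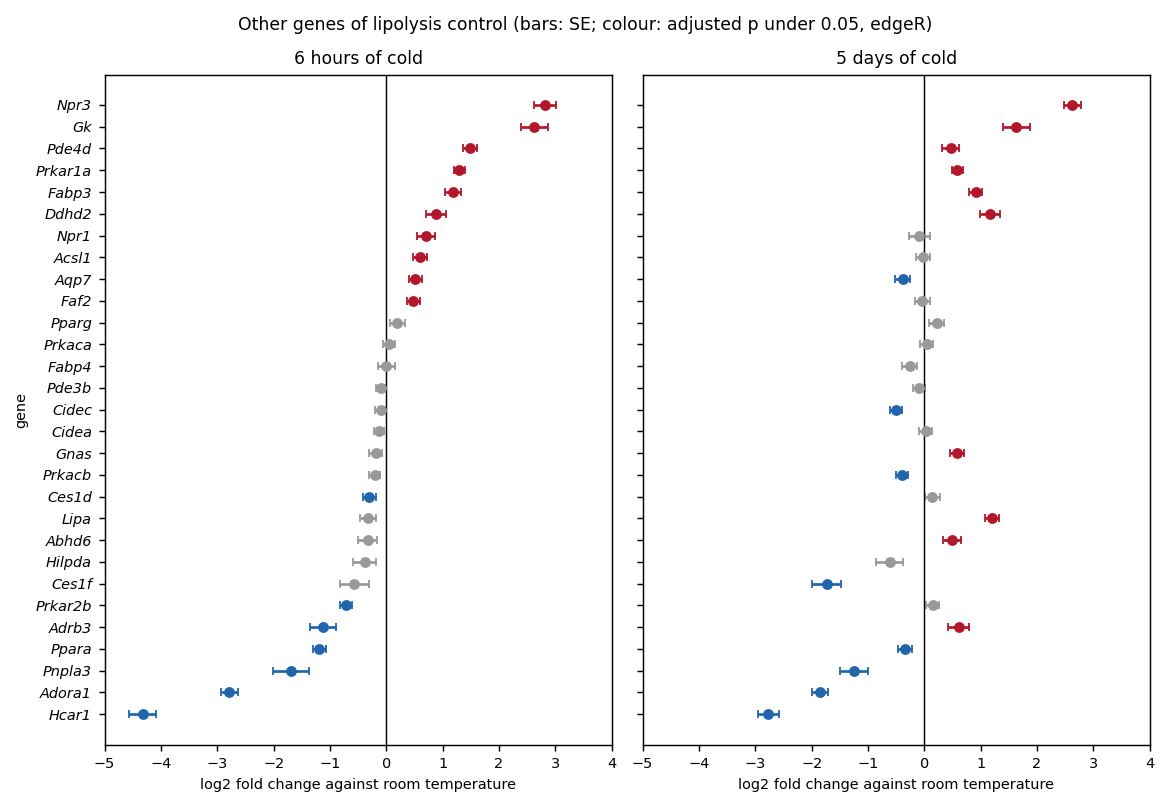
Log2 fold changes against room temperature (horizontal axes) of 29 further genes of lipolysis and its control (rows, ordered by the value after 6 hours) after 6 hours (left) and 5 days of cold (right), with the SE as bars and red or blue for genes called higher or lower. By value, Npr3 and Gk have the largest called rises and Hcar1 the largest called fall at both times. Lipa is called higher after 5 days and not after 6 hours (5 days against 6 hours 1.52, SE 0.13, adjusted p = 1.9e-08).

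Counts from whole tissue cannot tell fewer cells of a type from less RNA per cell, and markers of other cells in the iBAT changed with the cold. Plin2 is also made by lipid-laden macrophages. Of 8 markers of such cells, 5 were tested after 6 hours, of which Ctsd, a lysosomal protease made by most cells, was higher (log2 fold change 0.42) and Gpnmb lower, while 5 of 6 tested were higher after 3 and after 5 days. Their summed level was 371 to 464 CPM in controls, 499.9 to 623 after 6 hours and 688 to 1012 after 5 days, mostly Ctsd. Lgals3, a defining marker, averaged 10.0 CPM after 6 hours (log2 fold change 0.61, adjusted p = 0.062) and 87.4 after 5 days (3.74, adjusted p = 2.7e-05), whereas Trem2 was at 0 in 9 and Spp1 in 17 of the 35 libraries. The part of macrophages in the rise of Plin2, after 6 hours or later, was not tested.

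The 10 general adipocyte markers summed to between 19430 and 24090 CPM in controls and 11980 to 16020 CPM after 5 days, when 6 of them were lower and 1 higher, with a median log2 fold change of -0.64. The 6 brown adipocyte markers summed to 4189 to 6133 CPM in controls and 10210 to 13640 CPM after 5 days, when 5 of them were higher. After 6 hours they already summed to 11870 to 14560 CPM, with 4 higher. Ucp1 had the highest median of the 6 over the 35 libraries, 6772 CPM. The study names Ucp1, Ppargc1a and Dio2 as genes induced within 6 hours and Elovl3 as induced by longer cold. The sum therefore cannot tell the number of brown adipocytes from induction of these genes. The part of these shifts in the values of Plin4, Plin1 and the lipases was not tested. Of 8 skeletal muscle markers none was called from 6 hours to 2 days or after 4 days, 1 was lower after 3 days, and 4 were lower after 5 days. Their median log2 fold change was negative at every duration. It was -0.97 after 6 hours, -0.43, -1.075, -1.02 and -0.40 after 1, 2, 3 and 4 days, and -1.15 after 5 days. Plin4 was lower from 1 day on. The muscle markers summed to anywhere from 2.91 to 1075 CPM among the libraries, from 74.3 to 929.9 in controls and 155 to 261 after 5 days. The log2 CPM of muscle actin Acta1 had a correlation between -0.23 and 0.28 with each of the members over the 35 mice. The part of muscle in the level of Plin4 was not tested.

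Markers of 3 more cell types moved after 6 hours or 1 day. Abhd5, Plin2 and Plin3 were called at both times and Lipe after 6 hours. Pnpla2, Mgll, Plin4 and Plin5 were called after 1 day and not after 6 hours. The 4 endothelial markers summed to 229.9 to 278 CPM in controls, 391 to 492 after 6 hours and 458 to 545 after 1 day, with no overlap between the controls and either cold group, and with 2 higher and 1 lower after 6 hours and 3 higher after 1 day. Of 5 stromal markers none was called after 6 hours and 4 were lower after 1 day, when their sum was 339 to 450.4 CPM against 495 to 731 in controls. Of 5 erythroid markers 3 were higher after 6 hours and 4 after 1 day, with sums of 2202 to 3973 and 2489 to 4492 CPM against 1803 to 2316 in controls. The part of these cells in the values of the members was not tested.

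For each member, the 2 other genes most like it were sought by Pearson's r of log2 CPM over the 35 mice, among 8347 genes of at least 5 CPM, as a description. Plin2 ran with Bmp8b (r = 0.96) and Letm1 (0.94), and Mgll with Fam210a and Pigq (both 0.92). Lipe went with Prkar2b (0.89), a regulatory subunit of PKA, and Tspan18 (0.85), Abhd5 with Adam12 and Dlg1 (both 0.89), and Plin3 with Mknk2 (0.89) and Stradb (0.87). Pnpla2 was most like Hsd17b10 (0.83) and Cyb5a (0.82), Plin1 like Mcrip2 (0.84) and Idh3b (0.81), Plin4 like Impdh1 (0.83) and Pla2g16 (0.82), and Plin5 like Chchd2 and Tsn (both 0.78). For G0s2 the nearest were Zfp961 (0.71) and 2700097O09Rik (0.69), the least alike of all. These values mix the differences between durations with those between mice of a group. After subtracting each group's mean, the r of these pairs ran from 0.105 for Plin4 and Impdh1 to 0.95 for Pnpla2 and Hsd17b10. Plin2 had r = 0.47 with Bmp8b and 0.34 with Letm1, and Plin3 had 0.42 with Mknk2 and 0.31 with Stradb.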

How the data were processed

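iBAT RNA of 35 mice was made into 3′ libraries (QuantSeq FWD kit) and read at 76 bp. Per the labels and the study's methods, reads were aligned with STAR 2.6.1d to GRCm38 and counted per gene with HTSeq 0.11.2. The authors deposited these raw counts, without normalization, in a table whose 35 columns were each matched to a mouse, with 267 identifiers that had no symbol. The strand setting of the counting is not given in the sources used here, so reads of Lipe, Mgll, Abhd5 and Plin4 may not be told apart from those of 4732471J01Rik, Gm26588, A730085K08Rik and Hdgfl2, whose exons overlap theirs on the opposite strand. The last 400 bases of each member matched no other gene over 76 bases at 95% identity.

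From the counts, each comparison was fitted on its 10 mice in R 4.3.3 with edgeR 4.0.16 (filterByExpr, TMM, quasi-likelihood test, Benjamini-Hochberg adjustment over all genes, threshold 0.05), and all 35 mice in 1 fit for any difference among the 7 groups. Adjusted p-values are from edgeR, SEs follow from its F statistic, and values after ± are SDs of 5 mice. CPM used TMM factors over the 35 libraries, and log2 CPM a prior count of 2. Precision at this depth covers counting and mouse to mouse spread together. The members and gene lists were chosen with earlier results of these data known. Named were all members and, of the wider list, after 6 hours and 5 days up to 3 called genes with the largest rise and up to 3 with the largest fall. Adrb3 was named besides these. Alternatives were RLE factors, library size only, leaving out mitochondrial genes and Gm42418, no filter, DESeq2 1.42.0, an exact two-sided permutation test of 5 against 5 mice (252 splits, smallest p 0.00794), all mice in 1 fit, the replicate number as a block, and each mouse left out in turn. The statistics were tested on simulated data. Libraries of a group differed by at least 5 times the chi-square per degree of freedom of sampling noise, so none was a duplicate. Promoter sequences came from RefSeq (GRCm38.p6), and figures were drawn in Python 3.11.15. The single-cell and imaging data of the study were not analysed here.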

Additional observations from a re-analysis of the deposited data

Results flagged for a closer look

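Of 70 groups of 5 mice (10 genes in 7 groups), 8 had 1 mouse whose gap to the nearest other exceeded 0.71 of the range of its group, where chance gives about 1 in 20. Low mice were cold 6 hours replicate 5 for Lipe (475 CPM), cold 2 days replicate 4 (73.9 CPM) and cold 3 days replicate 1 (68.0 CPM) for Abhd5, and room temperature replicate 5 (221 CPM), cold 6 hours replicate 1 (162 CPM) and cold 5 days replicate 2 (128 CPM) for Plin4. For Plin5, room temperature replicate 5 was low (115 CPM) and cold 5 days replicate 1 high (179 CPM). Room temperature replicate 5 was also the lowest control in CPM for Pnpla2, Mgll, Abhd5, G0s2, Plin1 and Plin2. Its TMM factor, by which CPM is divided, was 1.21, the highest of the 35 libraries. The other controls had high factors too, from 1.09 to 1.13, where the median of all libraries was 1.01. By library size alone room temperature replicate 5 was still the lowest control for these genes except Pnpla2, for which only control 3 was higher. Calls that change without it are given beside the members. It had the highest level of the macrophage marker Adgre1 of all 35 libraries, 18.0 CPM. Its markers of macrophages in general summed to 133.7 CPM, the highest of the controls. Those of lipid-laden macrophages summed to 371 CPM, the lowest of the controls. The part of macrophages in its member levels was not tested.

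The response after 5 days differed from that after 6 hours, by the test of the 5-day against the 6-hour mice, for 8 of the 10 members, 5 higher and 3 lower, where 19.0% of all genes were higher and 16.9% lower. The difference in log2 fold change, 5 days minus 6 hours, was 1.64 for Plin2, 0.91 for Plin3, 0.84 for Lipe, 0.82 for Mgll and 0.35 for Plin1, and -0.65 for Plin4, -0.52 for G0s2 and -0.38 for Abhd5. For Pnpla2 (0.13, adjusted p = 0.33) and Plin5 (-0.09, adjusted p = 0.56) the test was not passed.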

How the results depend on the processing

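Each of 70 member values was refitted under 8 other settings and without each of the 10 mice of its comparison, 1260 values in all, of which 1196 kept their direction and side of the threshold, 18 were no longer past it and 19 newly were. None of the called values reversed. The 27 that reversed were all members with no call. By library size only they were Mgll (-0.139) and G0s2 (-0.0197) after 6 hours, Plin1 (-0.132) after 1 day, Lipe (-0.0662) and Plin3 (-0.121) after 4 days, and Lipe (-0.0718), Plin3 (-0.193) and Plin5 (-0.103) after 5 days. G0s2 after 1 day reversed with RLE factors (0.0026), no filter (0.022) and DESeq2 (0.020). Without single mice the range crossed 0 for Mgll (-0.0394 to 0.206) and Plin1 (-0.112 to 0.020) after 6 hours, G0s2 (-0.159 to 0.176) and Lipe (-0.116 to 0.0483) after 1 day, Plin1 (-0.136 to 0.00217) after 3 days, and Plin3 after 4 days (-0.0942 to 0.0868) and 5 days (-0.0559 to 0.121).

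By library size only, members lower numbered 4 after 6 hours, 6 after 2 days, 4 after 3 days and 3 after 5 days, and members higher after 2 days numbered 2. Without the filter, 2 were lower after 5 days. Leaving out 1 mouse, members lower ranged from 1 to 2 after 2 days (2 without control 1, control 5 or cold mouse 4) and from 1 to 2 after 5 days (2 without control 5). The counts under the other settings were within 1.5 times of those given, and in every fit across the 7 groups 9 or 10 members differed. Correlations of deviations had a median of -0.0047 in same-numbered pairs of mice and 0.0042 in different-numbered pairs, which gave no sign of pairing by replicate number. Of 105 same-numbered pairs 21 were over 0.1 (range -0.314 to 0.347). The share over 0.1 among different-numbered pairs was not counted, so that number decides nothing. With the replicate block 9 members differed among the groups and no count of members moved.

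With at least 225 counts in each library, depth did not limit the members. Groups of 5 do, as do 5 shared controls, the scaling, housing that changed with temperature, and transcript levels standing for an enzyme system that is controlled on protein.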

Other observations

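Within durations, members varied together with other genes in ways that the group means do not show, given here as descriptions over 35 mice after subtracting each group's mean of log2 CPM. Pnpla2 had r = 0.80 with Adipoq, the adipocyte hormone adiponectin, and r = -0.74 with Lgals3, -0.68 with Cd68 and -0.59 with Top2a, markers of macrophages and of dividing cells. Mgll had r = -0.61 and Plin1 r = -0.56 with Lgals3, while Plin2 had 0.22, Plin3 0.19 and Abhd5 -0.03. The macrophage marker Adgre1 gave other values for some members. With it Mgll had -0.57, Plin1 -0.58, Plin2 -0.22, Plin3 0.245, Abhd5 -0.495 and Pnpla2 -0.33. Over all 35 mice without that subtraction, Plin2 and Lgals3 had r = 0.65. The 2-day mouse with the lowest Pnpla2 of all libraries, cold 2 days replicate 1 at 877 CPM, also had the highest Lgals3 (266 CPM) and Gpnmb (84.1 CPM). Its library had the lowest mean correlation with its own group of all 35 (r = 0.944). It also had the lowest mitochondrial share (34.6%) and the highest Gm42418 share (15.8%) of the 2-day group. The part of library make-up in the values of Pnpla2 was not tested.

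Plin1 followed Ucp1 within durations (r = 0.72), as Mgll did (0.58), whereas Plin3 ran against it (-0.49). Between members the within-duration values were smaller, the highest being 0.47 for Mgll and Plin1. Plin2 and Plin4, which had r = -0.73 over the 35 mice, had 0.17 within durations.

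The 3 lipases together stood at 3265 ± 332 CPM in controls, 2768 ± 212 after 6 hours and 3938 ± 293 after 5 days. The 10 members took 0.563% ± 0.047 of all counts in controls, 0.461% ± 0.015 after 6 hours and 0.655% ± 0.049 after 5 days.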
